A study of Homo sapiens with 12 samples.

Results

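The 5 genes described here are MITF, the transcription factor that sets up the melanocyte lineage, and 4 genes of that lineage, MLANA, PMEL, GPR143 and EDNRB. They were taken by name, not by a threshold on these arrays, but with earlier results of these data known. They are 5 of the 14582 genes that could be named and tested on the arrays. Each was read by 1 probe set, so no choice among probe sets was needed. RNA came from SK-MEL-2, an established human melanoma line with mutant NRAS, and was hybridised to Affymetrix arrays 24 hours after treatment, with 3 arrays in each of 4 groups. The group called DTE received dabrafenib at 100 nM, trametinib at 10 nM and entinostat at 1 µM. The group called DT received dabrafenib at 100 nM and trametinib at 10 nM, the group called E received entinostat at 1 µM alone, and the DMSO group received the vehicle. Dabrafenib blocks the kinase BRAF, trametinib blocks the kinases MEK1 and MEK2 below it, and entinostat blocks class I histone deacetylases. Sample titles call the 3 arrays of a group biological replicates, while the series text calls them technical triplicates, so the p-values below measure only the spread between these arrays. All groups are 1 cell line, with no second line to show how general a difference is.

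Melanocytes make pigment inside melanosomes, and MITF binds short E-box sequences in the promoters of many of the genes needed for it. MITF RNA is itself controlled by SOX10, PAX3, LEF1 and cyclic AMP signalling, and the MAPK pathway acts on both the gene and the protein. MLANA encodes a small melanosomal membrane protein also known as MART-1, PMEL forms the fibrils on which melanin is laid down, and GPR143 is a receptor on the melanosome that is mutated in ocular albinism. EDNRB is the endothelin receptor that melanoblasts need to survive and migrate.

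RefSeq promoter sequence of build GRCh38.p14 was available for 4 of the 5 genes, with 3 starts for MITF, 1 for MLANA, 1 for GPR143 and 2 for EDNRB, while PMEL had 0 entries. The 250 bases upstream of each start were searched on both strands for CATGTG, the E-box core that MITF favours, for TCATGTG, the longer form known as the M-box core, which contains CATGTG, for CACGTG, the palindromic E-box, and for TGACGTCA, the full cAMP response element. The 4 sequences shown are one window per gene, chosen because the window of MITF start 3 holds the only cAMP response element, those of GPR143 and EDNRB start 1 hold the only E-box matches, and that of MLANA holds none. They lie at chr3:69936342-69936591 on the plus strand for MITF start 3, at chr9:5890639-5890888 on the plus strand for MLANA, at chrX:9765848-9766097 on the minus strand for GPR143 and at chr13:77919683-77919932 on the minus strand for EDNRB start 1. Each is written 5′ to 3′ on the strand of the gene, ending at the base before the start, with motif matches in capitals.
MITF start 3: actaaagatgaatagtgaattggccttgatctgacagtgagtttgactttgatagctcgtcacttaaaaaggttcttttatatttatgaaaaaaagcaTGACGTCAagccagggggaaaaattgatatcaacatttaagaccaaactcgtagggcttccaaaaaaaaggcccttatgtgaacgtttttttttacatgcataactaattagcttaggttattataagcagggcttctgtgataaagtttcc
MLANA: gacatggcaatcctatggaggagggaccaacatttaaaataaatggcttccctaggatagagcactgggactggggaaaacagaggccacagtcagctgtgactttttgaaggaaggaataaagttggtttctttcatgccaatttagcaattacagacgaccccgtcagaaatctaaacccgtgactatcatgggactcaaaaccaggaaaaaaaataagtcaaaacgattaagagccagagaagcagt
GPR143: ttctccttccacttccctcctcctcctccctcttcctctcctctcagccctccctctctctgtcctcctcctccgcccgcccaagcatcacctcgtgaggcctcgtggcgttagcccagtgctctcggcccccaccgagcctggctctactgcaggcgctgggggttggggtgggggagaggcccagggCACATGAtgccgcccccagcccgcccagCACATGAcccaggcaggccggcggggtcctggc
EDNRB start 1: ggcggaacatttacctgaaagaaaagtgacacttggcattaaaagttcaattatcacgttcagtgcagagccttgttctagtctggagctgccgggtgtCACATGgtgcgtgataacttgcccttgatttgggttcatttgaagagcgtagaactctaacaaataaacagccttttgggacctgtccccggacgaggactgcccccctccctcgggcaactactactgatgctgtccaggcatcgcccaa
The capitals in MITF start 3 are the cAMP response element at -152 to -145, which reads the same on both strands. In GPR143 the capitals CACATGA are the reverse complement of TCATGTG and lie at -61 to -55 and at -33 to -27, each with CATGTG inside it. In EDNRB start 1 the capitals CACATG are the reverse complement of CATGTG and lie at -151 to -146. Among 35116 upstream windows of the same length, 9.42% held CATGTG, 2.52% held TCATGTG, 6.34% held CACGTG and 1.65% held TGACGTCA. MLANA, MITF starts 1 and 2 and EDNRB start 2 held none of the 4 letter strings, which says nothing about binding elsewhere.

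**Figure D1:**
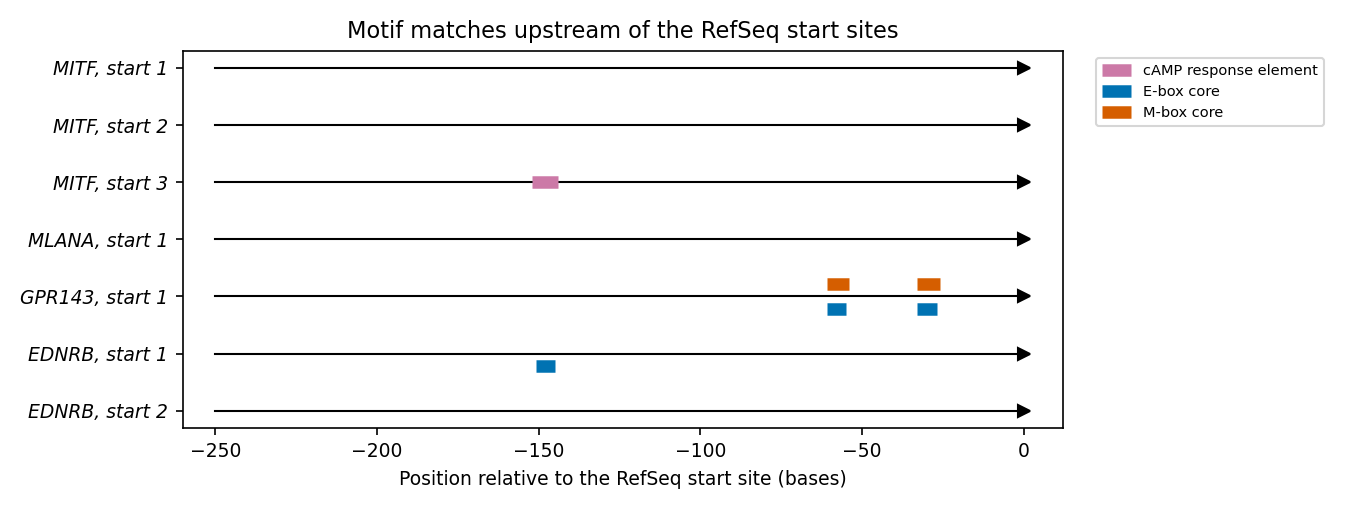
Positions of motif matches in the 250 bases upstream of 7 RefSeq start sites, with the distance from the start in bases on the horizontal axis and 1 line per start. Matches appear in MITF start 3 (cAMP response element), GPR143 (E-box and M-box cores, drawn one above the other because they overlap) and EDNRB start 1 (E-box core).

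The arrays as deposited differed in overall brightness. The genes above the median were those whose mean log2 intensity over the 12 arrays exceeded that of the median gene. Over them, the geometric mean intensity was 65.5 ± 3.78 in DTE, 103 ± 7.22 in DT, 143 ± 18.7 in E and 129 ± 15 in DMSO (SD, n = 3 each). The median gene differed between DTE and DMSO by a log2 difference of -0.54. Each difference below is therefore given on the deposited scale and again after quantile normalization, which gives all 12 arrays the same distribution and asks how a gene moved relative to the other genes of its array. In bulk RNA, fewer cells of a type and less RNA per cell cannot be told apart, and neither scale separates them. Of 18 melanocyte lineage markers, 14 were measured and 13 lay above the background level in every group, with KIT below it. The summed intensity of these 14 ranged from 2859 to 3120 in DTE, 5688 to 6422 in DT, 5098 to 7217 in E and 6382 to 7386 in DMSO. These 14 include the 5 genes. Of the other 9, 1 was lower and 1 higher in DT against DMSO in the test described below (all genes 23.1% and 4.72%). In E 1 was lower and 1 higher (4.81% and 20.8%), and in DTE 6 and 0 (60.8% and 4.26%). After quantile normalization 0 were lower and 6 higher in DT (14.6% and 15.1%), with a list median of 0.40. It was 5 and 0 in E (16.3% and 15.1%) and 4 and 2 in DTE (22.4% and 20.5%). Markers of other cells were low for keratinocytes (5 of 7 measured, sums of 53.7 to 61.8 in DTE, 72.5 to 77.4 in DT, 67.7 to 81.1 in E and 52.3 to 61.5 in DMSO) and fibroblasts (2 of 7 measured, sums of 15.4 to 18.8 in DTE, 9.61 to 11 in DT, 16.8 to 20.3 in E and 10.4 to 11.5 in DMSO). The 3 leukocyte markers measured (CD14, CSF1R and LYZ) summed to 137 to 144 in DTE, 112 to 131 in DT, 321 to 395 in E and 117 to 122 in DMSO. The 2 endothelial markers measured (VWF and KDR) summed to 64.8 to 77.7 in DTE, 35.4 to 38.8 in DT, 213 to 314 in E and 42.1 to 59.6 in DMSO. Between DMSO and E, CSF1R went from 27.2 ± 2.69 to 223.5 ± 35.4, CD14 from 29.1 ± 3.53 to 62.8 ± 8.44 and KDR from 39.3 ± 9.34 to 261.9 ± 55.8 (SD, n = 3 each). LYZ averaged 63.9 ± 2.42 in DMSO and 60.65 ± 6.12 in E, and VWF 14.2 ± 0.88 and 18.3 ± 2.44. No marker was at 0, and the part of these markers and of the array level in the results below was not tested.

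MITF fell under dabrafenib plus trametinib, whether or not entinostat was present. Its intensity was 104, 114 and 124 on the 3 DTE arrays, 126, 116 and 124 on the DT arrays, 320, 403 and 488 on the E arrays and 574, 537 and 454 on the DMSO arrays. Every DTE and DT array lay below every E and DMSO array, while the E arrays overlapped the DMSO arrays. The group means were 114 ± 9.90 in DTE, 122 ± 5.42 in DT, 404 ± 84.1 in E and 522 ± 61.6 in DMSO (SD, n = 3 each). In limma's moderated test over all genes with Benjamini-Hochberg adjustment, MITF was 4.27-fold lower in DT than in DMSO (log2 difference -2.09 ± 0.15 SE, adjusted p = 5.5e-10) and 4.56-fold lower in DTE than in DMSO (-2.19, adjusted p = 4.2e-11). Quantile normalization left both differences past the threshold and smaller, at -1.73 for DT and -1.10 for DTE. The effect of entinostat alone on MITF did not pass on the deposited scale, at -0.39 ± 0.15 with a 95% interval of -0.70 to -0.07 (limma, adjusted p = 0.066). It passed after quantile normalization, at -0.46 (limma, adjusted p = 0.00076).

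Adding entinostat to dabrafenib plus trametinib gave opposite pictures of MITF on the 2 scales. On the deposited scale DTE and DT arrays overlapped, and the difference was -0.09 with an interval of -0.41 to 0.22 (limma, adjusted p = 0.62). After quantile normalization MITF averaged 192 ± 4.0 in DTE and 124 ± 4.19 in DT (SD, n = 3 each), the arrays did not overlap, and MITF was higher in DTE by a log2 difference of 0.63 (limma, adjusted p = 4.9e-05). Over all genes, the median log2 difference between DTE and DT was -0.41 on the deposited scale. Relative to entinostat alone, MITF was lower in DTE on both scales, at -1.80 deposited and -0.64 quantile-normalized (limma, adjusted p = 1.1e-09 and 0.00012).

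MLANA fell in all 3 treated groups, and furthest with all 3 agents on both scales. Its intensity was 67.0, 66.0 and 54.7 on the DTE arrays, 144, 126 and 144 on the DT arrays, 145, 193 and 219 on the E arrays and 256, 300 and 245 on the DMSO arrays. No treated array reached the lowest DMSO array, and the DTE arrays lay below all the others. The means were 62.6 ± 6.85 in DTE, 138 ± 10.4 in DT, 186 ± 37.3 in E and 267 ± 29.1 in DMSO (SD, n = 3 each). The log2 difference from DMSO was -2.09 in DTE, -0.95 ± 0.15 SE in DT and -0.54 in E (limma, adjusted p = 9.1e-11, 4.3e-05 and 0.011), and after quantile normalization -1.01, -0.59 and -0.62, all past the threshold. MLANA was also lower in DTE than in DT, by -1.14 deposited (limma, adjusted p = 2e-06) and -0.43 quantile-normalized (adjusted p = 0.013). The quantile-normalized difference did not pass without DTE replicate 3 (-0.29, adjusted p = 0.055). The deposited call in E was lost without DMSO replicate 2 (-0.45, adjusted p = 0.07) or without E replicate 1 (-0.37, adjusted p = 0.065).

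PMEL was the only one of the 5 genes that rose under entinostat alone, and it did so on both scales. Its intensity was 288, 308 and 238 on the DTE arrays, 509, 426 and 451 on the DT arrays, 944, 1202 and 1120 on the E arrays and 684, 780 and 590 on the DMSO arrays. All 3 E arrays exceeded every DMSO array, and all DT and DTE arrays lay below every DMSO array. The means were 278 ± 36.4 in DTE, 462 ± 42.5 in DT, 1089 ± 132 in E and 684 ± 95 in DMSO (SD, n = 3 each). PMEL was 1.59-fold higher in E than in DMSO (log2 difference 0.67, limma, adjusted p = 0.0015; quantile 0.65, adjusted p = 0.00098). Its decreases against DMSO passed on the deposited scale, at -1.30 in DTE and -0.56 ± 0.15 SE in DT (limma, adjusted p = 5.9e-08 and 0.0057). After quantile normalization neither passed, at -0.22 in DTE and -0.15 in DT (limma, adjusted p = 0.16 and 0.38). Against entinostat alone, PMEL was lower in DTE on both scales, at -1.97 deposited and -0.86 quantile-normalized (limma, adjusted p = 2.4e-10 and 0.00021).

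GPR143 fell in all 3 treated groups and was lowest with all 3 agents. Its intensity was 16.8, 16.3 and 17.1 on the DTE arrays, 31.0, 26.3 and 27.2 on the DT arrays, 33.1, 44.2 and 56.3 on the E arrays and 90.6, 57.2 and 53.9 on the DMSO arrays. The DTE arrays lay below all the others, the DT arrays below all E and DMSO arrays, and the E arrays overlapped the DMSO arrays. The DTE arrays were close to, but above, their background level of 11.5. The means were 16.7 ± 0.41 in DTE, 28.2 ± 2.47 in DT, 44.5 ± 11.6 in E and 67.2 ± 20.4 in DMSO (SD, n = 3 each). The log2 difference from DMSO was -1.97 in DTE, -1.22 ± 0.18 SE in DT and -0.59 in E (limma, adjusted p = 2.9e-09, 1.8e-05 and 0.021), and after quantile normalization -1.39, -0.93 and -0.77, all past the threshold. GPR143 was lower in DTE than in DT by -0.75 deposited and -0.46 quantile-normalized (limma, adjusted p = 0.0013 and 0.013). That difference did not pass with median centring (-0.30, adjusted p = 0.077) or with centring on the genes above the median (-0.095, adjusted p = 0.59). Its deposited call in E rested on single arrays: without DMSO replicate 1, the brightest, the difference was -0.35 (limma, adjusted p = 0.16), and without E replicate 1 it was -0.39 (adjusted p = 0.12).

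EDNRB fell with all 3 agents, and its differences in DT and in E did not pass the test. Its intensity was 83.2, 92.8 and 75.1 on the DTE arrays, 288, 254 and 285 on the DT arrays, 268, 324 and 369 on the E arrays and 316, 318 and 268 on the DMSO arrays. The DTE arrays lay far below the other 9 arrays, whose 3 groups overlapped. The means were 83.7 ± 8.87 in DTE, 276 ± 18.9 in DT, 320 ± 50.9 in E and 301 ± 28.1 in DMSO (SD, n = 3 each). EDNRB was 3.6-fold lower in DTE than in DMSO (log2 difference -1.85 ± 0.14 SE, limma, adjusted p = 2.3e-10; quantile -0.75, adjusted p = 3.2e-05). In DT the difference from DMSO was -0.12 with a 95% interval of -0.42 to 0.18 (limma, adjusted p = 0.6), and after quantile normalization 0.21, a turned sign that did not pass (adjusted p = 0.12) except without DTE replicate 3 (0.21, adjusted p = 0.034). In E it was 0.08 with an interval of -0.22 to 0.38 (limma, adjusted p = 0.73), and after quantile normalization 0.01. DTE lay below DT by -1.72 deposited and -0.96 quantile-normalized (limma, adjusted p = 3.6e-09 and 5.6e-06), and below E by -1.93 and -0.76.

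**Figure D2:**
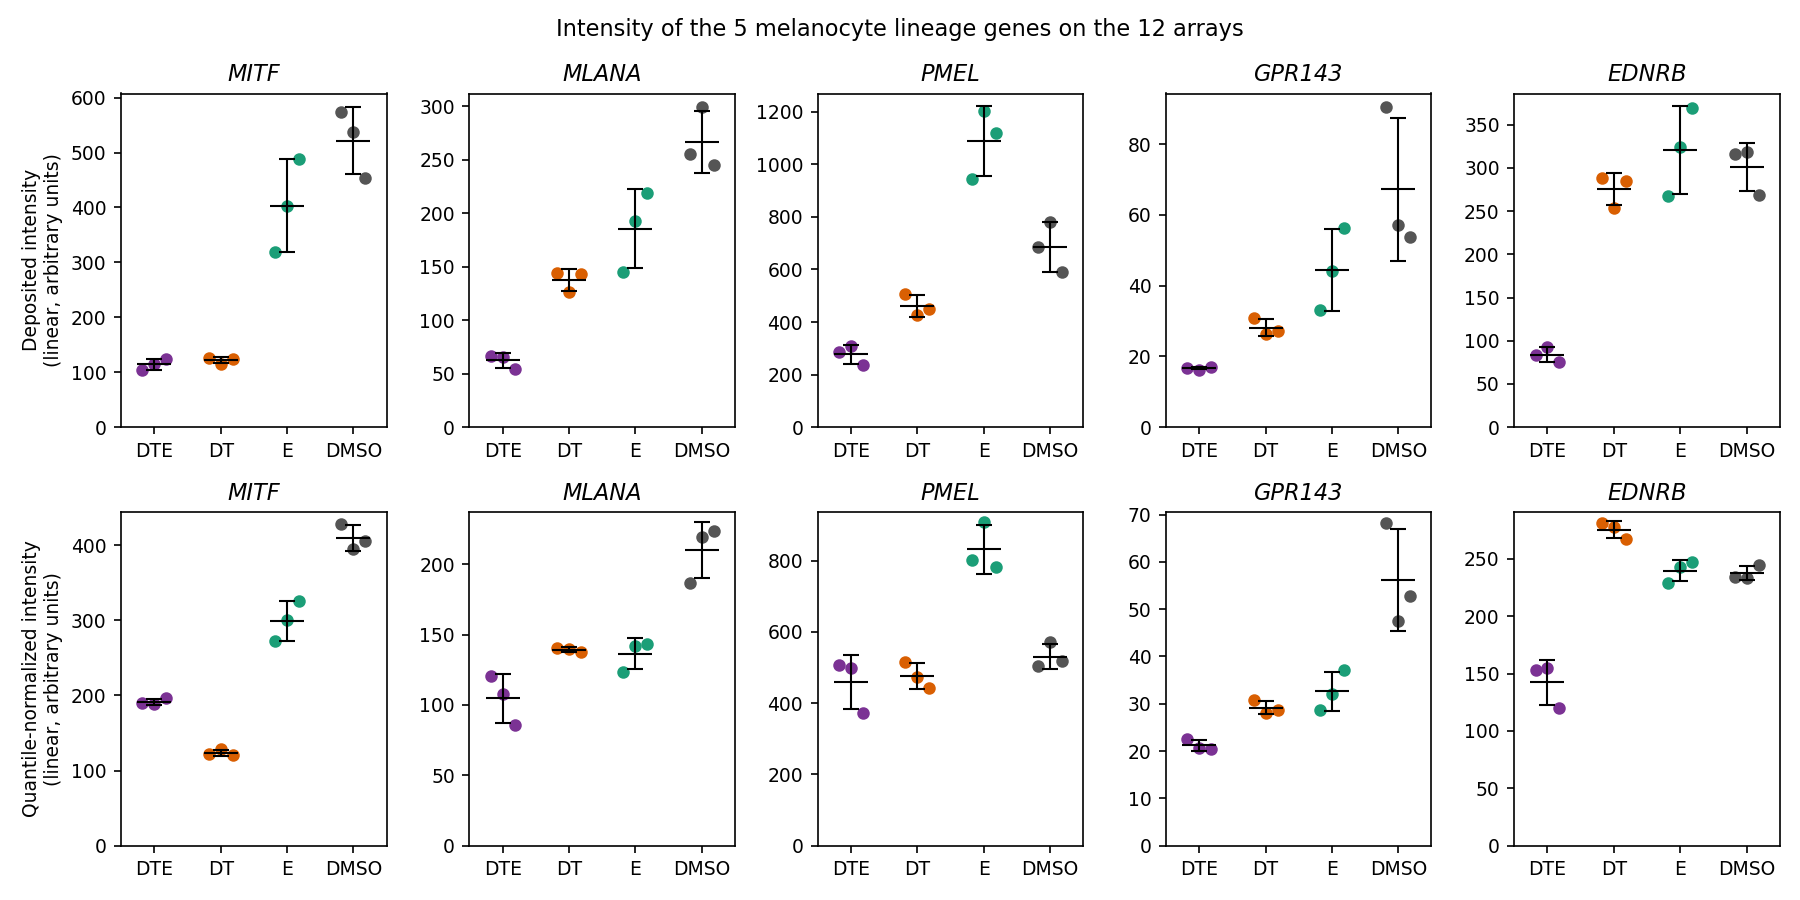
Intensity (linear, arbitrary units, each axis from 0) of the 5 genes on the 12 arrays, as deposited in the upper row and after quantile normalization in the lower row. Points are arrays, and the black bars are the group mean ± SD of 3 arrays. MITF is low in both DTE and DT, PMEL is highest in E, and EDNRB is low in DTE alone, on both rows.

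The interaction term asked whether the change with entinostat differed between cells that also received dabrafenib plus trametinib and cells that did not, as the difference DTE minus DT less the difference E minus DMSO. On the log2 scale it was -1.80 ± 0.20 SE for EDNRB, -1.41 ± 0.21 for PMEL and -0.61 ± 0.22 for MLANA (limma, adjusted p = 2.1e-06, 4.3e-05 and 0.02). For MITF it was 0.29 ± 0.21 (limma, adjusted p = 0.24) and for GPR143 -0.16 ± 0.26 (adjusted p = 0.59). The median gene had an interaction of -0.63, close to the value of MLANA. After quantile normalization EDNRB at -0.97 and PMEL at -0.71 remained past the threshold (limma, adjusted p = 0.0016 and 0.031), MLANA at 0.19 did not (0.61), and MITF at 1.09 passed in the positive direction (0.00023). Entinostat thus went with a lower relative level of MITF without the kinase inhibitors and a higher one with them, by the signs of -0.46 and 0.63 given above.

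Counts over the 5 genes were read against all 14582 genes. In DT against DMSO, 4 of the 5 were lower and 0 higher, against 23.1% of all genes lower and 4.72% higher. After quantile normalization 3 of the 5 were lower, against 14.6% of all genes lower and 15.1% higher. In E against DMSO, 2 were lower and 1 higher, against 4.81% and 20.8% of all genes, and after quantile normalization 3 were lower and 1 higher, against 16.3% and 15.1%. In DTE against DMSO all 5 were lower, but so were 60.8% of all genes, with 4.26% higher, and after quantile normalization 4 of the 5 were lower against 22.4% of all genes lower and 20.5% higher. In DTE against DT, 4 were lower against 54% of all genes, with 4.09% higher, and after quantile normalization 3 were lower and 1, MITF, higher against 17.9% and 16.4%. In DTE against E, all 5 were lower on both scales, against 78.5% of all genes lower and 0.247% higher as deposited and 9.99% lower and 10.1% higher quantile-normalized. Of these, MLANA did not pass with quantile normalization and the replicate block together (-0.39, limma, adjusted p = 0.05), and GPR143 did not pass with centring on the genes above the median (-0.26, adjusted p = 0.15). For the interaction, 3 passed as negative against 62.5% of all genes passing as negative and 0.206% as positive on the deposited scale, and after quantile normalization 2 passed as negative and 1 as positive, against 2.12% and 2.08%. The median log2 difference of the 5 genes after quantile normalization was -1.01 in DTE, -0.59 in DT and -0.46 in E against DMSO, beside medians over all genes of -0.03, 0.00 and -0.04.

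**Figure D3:**
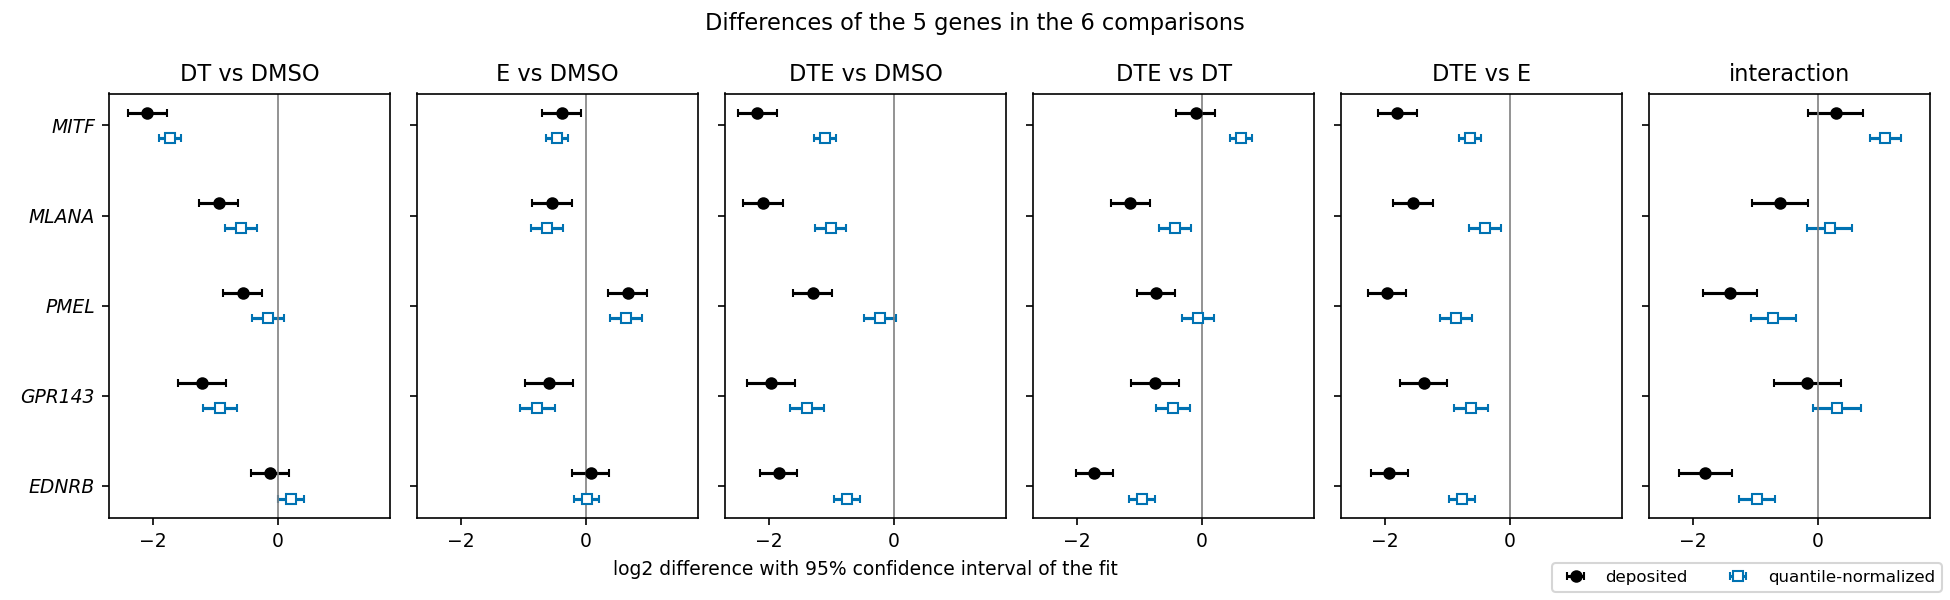
Log2 differences of the 5 genes in the 6 comparisons, with 95% confidence intervals of the fit. Black circles are deposited values and open squares are quantile-normalized values. MITF in DTE vs DT lies near 0 (-0.09) deposited and at 0.63 quantile-normalized, while EDNRB lies below 0 on both scales in every comparison that has DTE on top.

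Because all genes of an array share its level, the ratio of each gene to MITF within an array was also described, scaled so that the DMSO group is 1. The ratio EDNRB over MITF was 1.28 ± 0.20 in DTE, 3.92 ± 0.10 in DT, 1.38 ± 0.07 in E and 1.00 ± 0.04 in DMSO (SD, n = 3 each). It was higher in every DT array (3.8 to 3.98) than in any other array. PMEL over MITF was 1.88 ± 0.36 in DTE, 2.89 ± 0.17 in DT, 2.10 ± 0.30 in E and 1.00 ± 0.10 in DMSO, so that all 9 treated arrays lay above the DMSO arrays (lowest 1.46 against highest 1.11). MLANA over MITF was 1.08 ± 0.20 in DTE, 2.21 ± 0.07 in DT, 0.90 ± 0.03 in E and 1.00 ± 0.12 in DMSO. GPR143 over MITF was 1.17 ± 0.10 in DTE, 1.84 ± 0.11 in DT, 0.87 ± 0.05 in E and 1.01 ± 0.21 in DMSO. In DT all 4 mean ratios were higher than in the other groups, which restates that MITF fell further than the other 4 genes there. In DTE all 4 mean ratios were nearer to 1 than in DT, with PMEL over MITF still at 1.88. The ratios from quantile-normalized values were close to these, except that GPR143 over MITF was 0.82 in DTE.

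**Figure D4:**
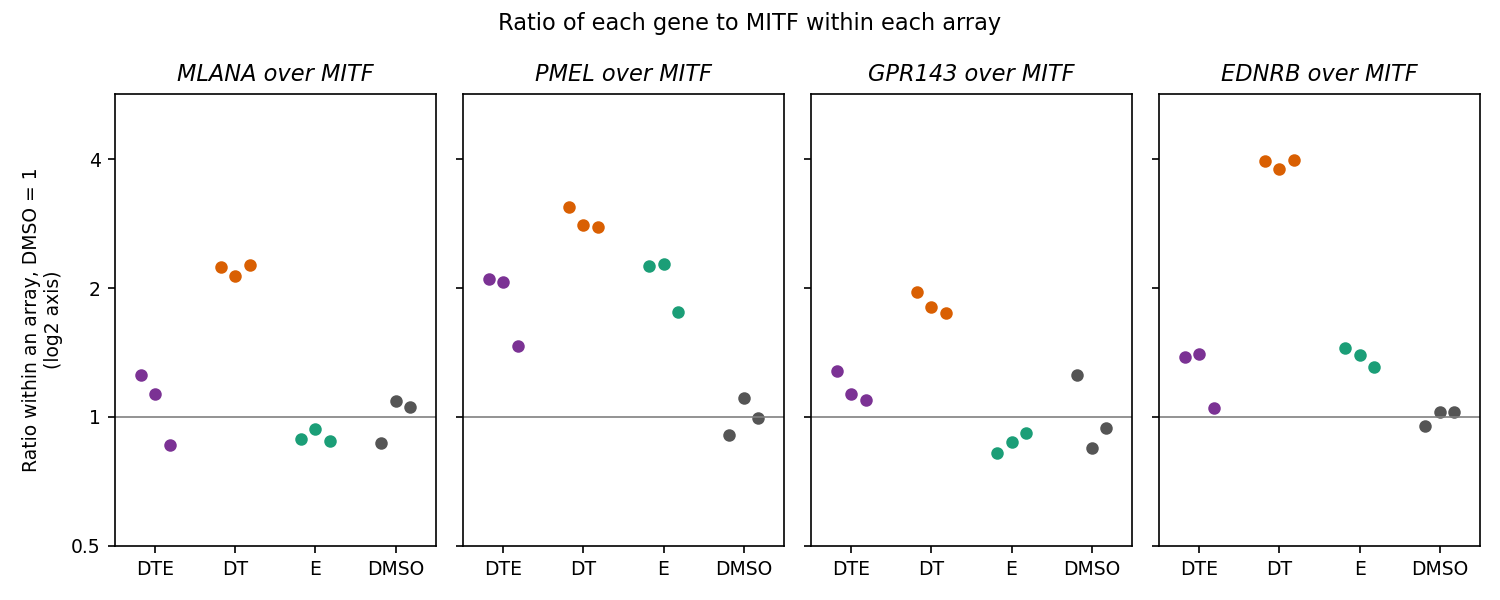
Ratio of MLANA, PMEL, GPR143 and EDNRB to MITF within each of the 12 arrays, on a log2 axis with the DMSO group at 1, from deposited values. Points are arrays. All 4 ratios are highest in DT, and EDNRB over MITF reaches 3.8 to 3.98 there.

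Other genes of the pathway were described from lists that leave out the 5 genes, and some genes, such as JUN, IRF4, HPS4, PAX3 and TYR, stand on more than one list. Of 27 genes known to regulate MITF, 23 were measured, and in DT against DMSO 10 were lower, 3 higher and 10 did not pass, against 23.1% of all genes lower and 4.72% higher, with a median log2 difference of -0.11 beside -0.12 for all genes. After quantile normalization 7 were lower and 7 higher (median -0.01), against 14.6% and 15.1% of all genes. LEF1, a mediator of Wnt signalling that activates MITF, fell in DT (-1.60, quantile -1.28), as did HMGA1, a chromatin protein (-1.38, quantile -1.0), and IRF4, a pigmentation factor that cooperates with MITF (-1.45, quantile -1.11). JUN, a transcription factor of the AP-1 family, rose in DT (2.19, quantile 2.55), as did FOXD3, a neural crest factor known to repress MITF (1.81, quantile 1.97) and ZEB2, a transcription factor of melanoblasts (1.26, quantile 1.56). Their group means show how entinostat changed that response. FOXD3 averaged 17.0 ± 3.14 in DTE, 137 ± 15.8 in DT, 25.8 ± 2.91 in E and 39.0 ± 3.81 in DMSO (SD, n = 3 each). JUN averaged 148 ± 9.74 in DTE, 523 ± 40.1 in DT, 222 ± 17.1 in E and 115 ± 14.2 in DMSO. Both were lower in DTE than in DT, FOXD3 by -3.02 (quantile -2.69) and JUN by -1.82 (quantile -1.12), with limma adjusted p = 9.3e-13 and 7.4e-10. IRF4, not among the 4 smallest p of that comparison, was higher in DTE than in DT. The difference was 0.55 deposited and 1.19 quantile-normalized (limma, adjusted p = 0.0058 and 2.1e-06). Of the 23 regulators, 13 were lower and 2 higher in DTE against DT, against 54% and 4.09% of all genes. After quantile normalization 9 were lower and 5 higher, against 17.9% and 16.4%.

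In DTE against DMSO, 14 of the 23 regulators were lower and 2 higher (median -0.90), near the share of all genes, of which 60.8% were lower and 4.26% higher. After quantile normalization 8 were lower and 5 higher (median 0.02), against 22.4% and 20.5% of all genes. LEF1 had the smallest p of the list and fell by 2.61 on the log2 scale (quantile -1.56), followed by USF1, a helix-loop-helix factor that also binds E-boxes (-1.83, quantile -1.0). PAX3, a direct activator of MITF, was lower in DTE on both scales, at -1.52 and -0.48 (limma, adjusted p = 1.3e-08 and 0.00033). In E against DMSO, 4 regulators were lower and 5 higher (all genes 4.81% and 20.8%), and after quantile normalization 9 and 5 (all genes 16.3% and 15.1%). KITLG, the ligand of the receptor KIT, rose in E (1.43, quantile 1.02), and USF1 fell (-0.85, quantile -0.98). SOX10, the lineage's best known activator of MITF, is given here after its values were seen: it averaged 271 ± 13.4 in DTE, 585 ± 17.9 in DT, 460 ± 113 in E and 584 ± 72.3 in DMSO. Its difference from DMSO was 0.01 in DT (limma, adjusted p = 0.98), -0.37 in E (adjusted p = 0.095) and -1.10 in DTE (adjusted p = 1.9e-06). After quantile normalization it was 0.40 in DT (limma, adjusted p = 0.0092), -0.42 in E (adjusted p = 0.0065) and -0.02 in DTE (adjusted p = 0.89).

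Of 41 other genes known as MITF targets, 23 were measured, and 16 were lower, 1 higher and 6 not past the threshold in DT against DMSO, with a median of -0.60, against 23.1% of all genes lower and 4.72% higher. After quantile normalization 12 were lower and 2 higher (median -0.28), against 14.6% and 15.1% of all genes. CDK2, a cell cycle kinase, fell in DT by 1.94 on the log2 scale (quantile -1.58), IVNS1ABP by 1.69 (quantile -1.34), the adhesion molecule CEACAM1 by 1.62 (quantile -1.28) and RRAGD, a GTPase of lysosomal nutrient sensing, by 1.28 (quantile -0.94). In DTE against DT, 16 of the 23 were lower and 2 higher, against 54% and 4.09% of all genes. After quantile normalization 7 were lower and 8 higher (median -0.02), against 17.9% and 16.4%. CDK2 and RRAGD, not among the 4 smallest p of that comparison, showed -0.08 (limma, adjusted p = 0.67) and 0.05 deposited. After quantile normalization CDK2 was higher by 0.65 (limma, adjusted p = 8e-05) and RRAGD showed 0.77. The values of MITF there were -0.09 deposited and 0.63 quantile-normalized. TYR, which encodes tyrosinase, the first enzyme of melanin synthesis, averaged 237 ± 47.9 in DTE, 516 ± 6.39 in DT, 826 ± 147 in E and 870 ± 122 in DMSO (SD, n = 3 each). It was lower in DTE than in DT on both scales, at -1.14 and -0.47 (limma, adjusted p = 4e-06 and 0.019). TYRP1, a second melanosomal enzyme, was the 1 target that rose in DT (0.81, quantile 0.89), at intensities of 21.3 ± 1.65 in DTE, 35.2 ± 1.87 in DT, 21.0 ± 3.29 in E and 20.1 ± 0.25 in DMSO. In E against DMSO, 1 target was lower and 4 were higher, against 4.81% and 20.8% of all genes, and after quantile normalization 8 and 4, against 16.3% and 15.1%. Higher ones included MET, the receptor of hepatocyte growth factor (1.01, quantile 0.92), and CEACAM1 (0.84, quantile 0.68). In DTE against DMSO, 21 were lower and 0 higher (median -1.23), against 60.8% of all genes lower and 4.26% higher. After quantile normalization 14 were lower and 4 higher (median -0.36), against 22.4% and 20.5%.

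The genes of melanosome formation and transport gave 18 measured of 33. In DT against DMSO 7 were lower and 1 higher, against 23.1% and 4.72% of all genes, in E 1 was lower and 6 higher, against 4.81% and 20.8%, and in DTE 16 were lower and 0 higher, against 60.8% and 4.26%. After quantile normalization 4 were lower and 1 higher in DT (all genes 14.6% and 15.1%), 3 lower and 5 higher in E (16.3% and 15.1%), and 6 lower and 4 higher in DTE (22.4% and 20.5%). ANKRD27, a trafficking factor for melanosomal enzymes, fell in DT (-1.33, quantile -0.95), and MREG, which acts in melanosome transfer, fell as well (-0.92, quantile -0.72). In E, MREG rose (0.96, quantile 0.67), as did SYTL2, a partner of RAB27A (0.95, quantile 0.60), in the direction of PMEL. MLPH, the linker between melanosomes and the motor MYO5A, fell in DTE (-1.95, quantile -0.92).

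For the endothelin pathway around EDNRB, 6 of 14 genes were measured. ECE1, the enzyme that activates endothelins, averaged 48.8 ± 3.62 in DTE, 44.8 ± 10.6 in DT, 191 ± 29.6 in E and 96.5 ± 17.8 in DMSO (SD, n = 3 each). It fell in DT (-1.12, quantile -0.77), rose in E (0.99, quantile 0.88), and in DTE was lower only on the deposited scale (-0.97, quantile 0.06). Of the ligands, EDN1 was not well above background in any group, EDN2 fell in DTE (-0.997, quantile -0.44), and EDN3 did not pass against DMSO in DT, E or DTE. The G protein gene GNAS fell in DTE deposited and turned sign after quantile normalization (-0.56, quantile 0.21), and RASGRP3 was not well above background in any group. Against DMSO, 2 of the 6 were lower in DT, 2 higher in E and 4 lower in DTE, near the shares of all genes, which were 23.1% lower in DT, 20.8% higher in E and 60.8% lower in DTE. The 6 genes counted include EDN1 and RASGRP3, which lay under background. EDN1 averaged 14.35 in E against a background of 15.11, and RASGRP3 9.56 in DTE against 11.53. After quantile normalization 1 was lower and 1 higher in DT (all genes 14.6% and 15.1%), 0 lower and 2 higher in E (16.3% and 15.1%), and 2 lower and 1 higher in DTE (22.4% and 20.5%).

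Melanoma cells that lose MITF are known to gain a dedifferentiated state marked by AXL, NGFR and AP-1 genes, and 19 of 28 genes of that state were measured. In E against DMSO 14 rose and 1 fell, the median being 0.76 beside 0.14 for all genes, of which 20.8% were higher and 4.81% lower. After quantile normalization 14 were higher and 2 lower (median 0.59), against 15.1% and 16.3% of all genes. ANKRD1 rose in E by a log2 difference of 1.62 (quantile 1.64), THBS1 by 1.29 (quantile 1.32) and DKK1 by 1.31 (quantile 0.90). The 2 markers named first went different ways. AXL averaged 494 ± 22.1 in E and 630.5 ± 47.0 in DMSO (quantile means 373 and 493). NGFR averaged 310 ± 20.3 in E and 192 ± 29.5 in DMSO (SD, n = 3 each, quantile means 235 and 149.5). In DT, where MITF fell most on the relative scale, 3 were higher (JUN, AJUBA and THBS1) and 5 lower, against 4.72% and 23.1% of all genes, and after quantile normalization 6 and 4, against 15.1% and 14.6%. AXL was lower in DT (-0.70, quantile -0.32), and FOSL1, an AP-1 subunit, fell too (-1.17, quantile -0.80). In DTE 6 were higher and 6 lower, against 4.26% and 60.8% of all genes, and after quantile normalization 12 were higher and 2 lower (median 0.74), against 20.5% and 22.4%. THBS1 averaged 1327 ± 168 in DTE, 1259 ± 148 in DT, 1627 ± 67.2 in E and 666 ± 83.2 in DMSO (SD, n = 3 each), and FOSL1 38.5 ± 5.18 in DTE, 106 ± 6.37 in DT, 230 ± 19.2 in E and 240 ± 8.15 in DMSO. Of the other MITF family members, TFE3 fell in DTE on the deposited scale (-0.72, quantile 0.20), and on that scale neither TFEB nor TFEC passed against DMSO in any group. TFEC was not well above background in any group, nor was TFEB in DMSO or E. After quantile normalization TFE3 was higher in DT (0.25, limma, adjusted p = 0.048) and TFEC in DTE (0.34, adjusted p = 0.017), while TFEB did not pass against DMSO.

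**Figure D5:**
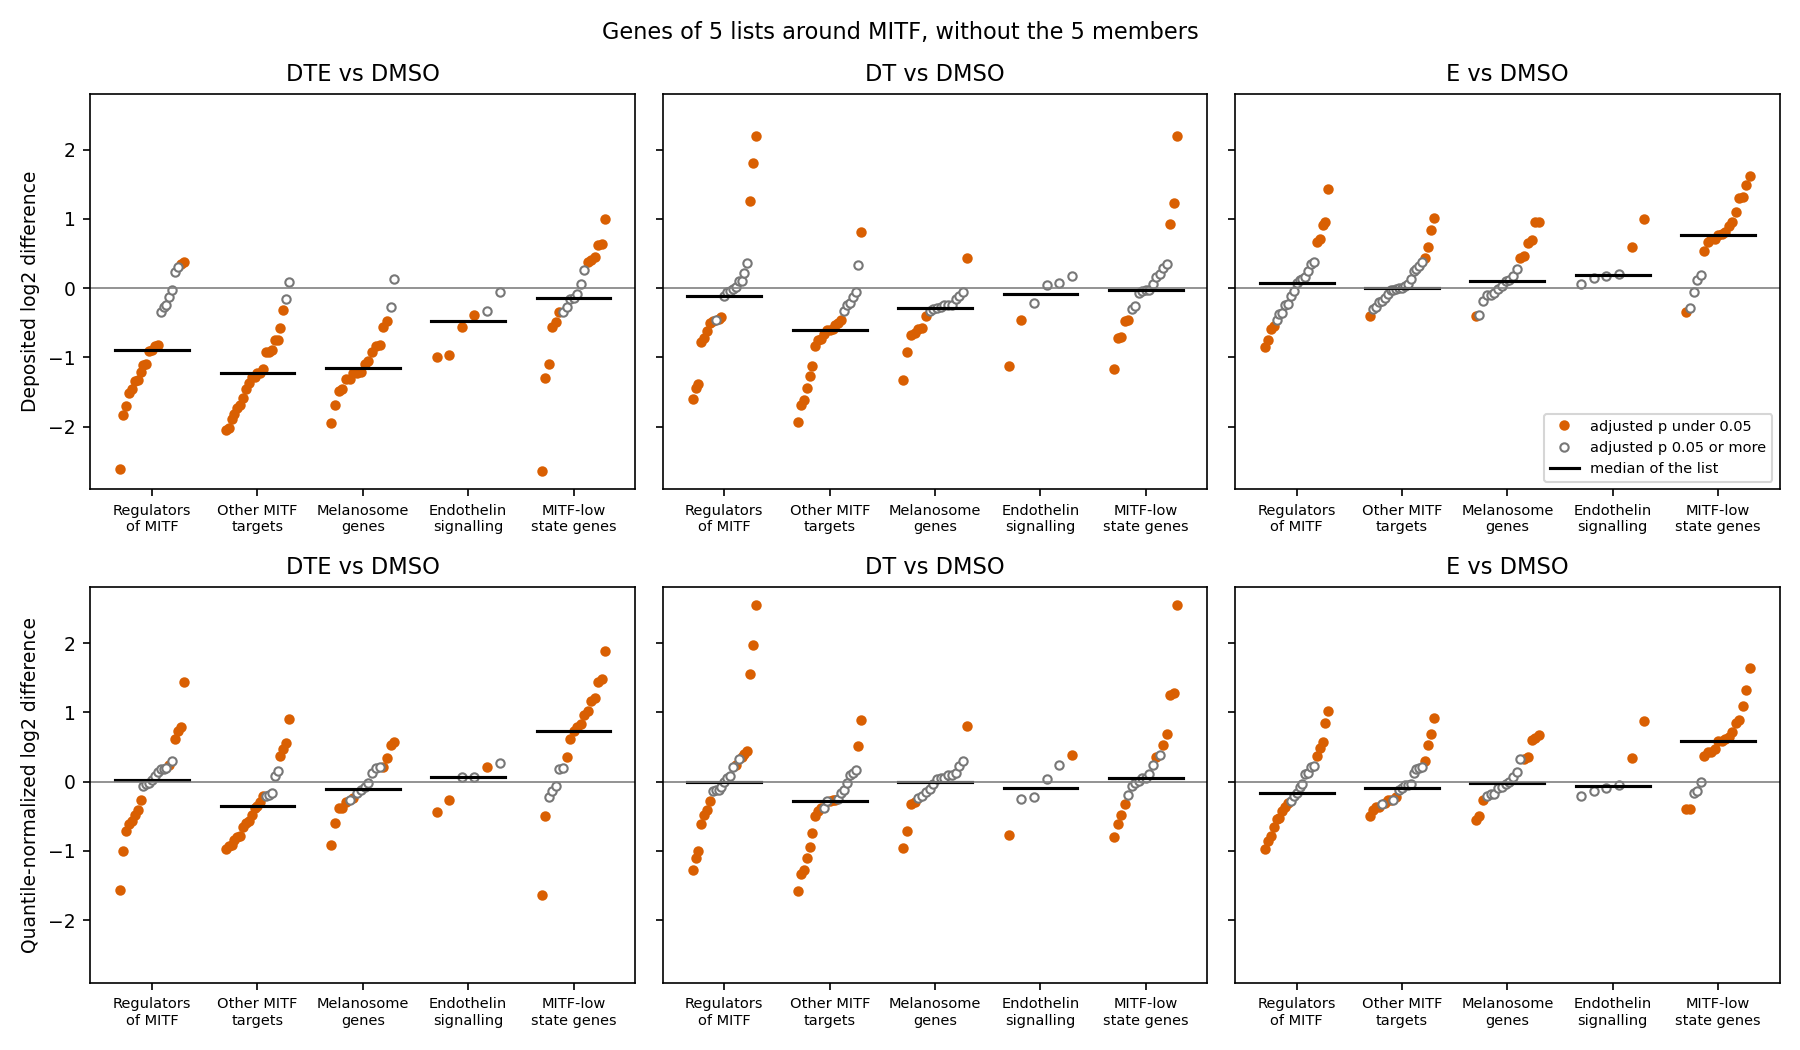
Log2 differences of the measured genes of 5 lists in DTE, DT and E against DMSO, with deposited values in the upper row and quantile-normalized values in the lower row. Points are genes, filled where the adjusted p was under 0.05, and black lines are list medians. In DTE the median of the regulators is -0.90 deposited and 0.02 quantile-normalized, while the MITF-low genes sit above 0 in E on both rows (medians 0.76 and 0.59).

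The 5 genes did not share 1 pattern. Patterns were compared as the root mean square difference between quantile-normalized log2 profiles over the 12 arrays, each centred on its mean, among 7290 genes whose highest group mean lay above the median gene. The closest pair of the 5 was GPR143 and MLANA at 0.24, and the farthest was MITF and EDNRB at 0.75. Of the other 4, GPR143 was nearest to MITF at 0.46 and ranked 598 among the 7290 genes. The genes nearest to MITF were TMEM97 at 0.13, CMTM7 at 0.14 and KIF15 at 0.15, and TMEM97 averaged 74.3 ± 2.79 in DTE, 87.2 ± 6.78 in DT, 300 ± 44.5 in E and 323 ± 39.5 in DMSO (SD, n = 3 each). Nearest to MLANA were DNAAF5 at 0.10, DDX56 at 0.11 and PTBP1 at 0.12, and nearest to GPR143 were UNG at 0.14, LIN9 and ARHGEF39 at 0.15. PMEL's nearest were DHRS7B at 0.13, ATG101 at 0.15 and TRNP1 at 0.15, of which DHRS7B averaged 119 ± 3.11 in DTE, 197 ± 15.6 in DT, 457 ± 46.8 in E and 299 ± 20.3 in DMSO. EDNRB's nearest were MAMLD1, BRSK1 and HTRA2 at 0.15 to 0.16, and HTRA2 averaged 122 ± 5.67 in DTE, 354 ± 15.9 in DT, 391 ± 44.9 in E and 344 ± 44.2 in DMSO. None of these 15 genes is on the lists above.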

How the data were processed

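Per the submitters' processing notes the deposited values were made by the authors with RMA and Transcriptome Analysis Console, with versions and order not given. Per the labels ERCC spike-ins were added before extraction; no source here says whether the authors scaled by them. The deposited values were linear intensities per probe set, between 2.345 and 8595, with array medians from 16.8 to 31.9, and precision is limited by there being 12 arrays. Of 29398 probe sets, 14750 (50.2%) had 1 gene symbol in the platform annotation and 14648 had none, leaving 14582 genes, each read by its probe set with the highest mean over the 12 arrays (156 genes had several).

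Log2 intensities were fitted with limma 3.58.1 in R 4.3.3, with 1 mean per group over all 12 arrays, and p-values were adjusted by Benjamini-Hochberg over all genes within each of 6 comparisons, at 0.05; a fitted difference is given ± SE. A gene counted as above background in a group where its mean exceeded the mean background level of that group's arrays. On each array that level was the 95th percentile of the 25% of genes with the lowest mean log2 intensity over the 12 arrays. Each fit was repeated after quantile normalization. Other alternatives were median centring, centring on the genes above the median, the replicate number as a block, only the groups compared, a trended robust variance, array weights, a filter on dim genes, the mean of all probe sets of a gene, log2(value + 16) and leaving out each array. The fit was tested on simulated data. Same-numbered arrays of different groups did not deviate together: correlations ran from -0.221 to 0.126 over 18 pairs, with 2 over 0.1.

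The 5 genes and the lists were chosen with earlier results of these data known. All genes of a list with up to 12 measured genes could be named. Of a longer list, the 4 with the smallest adjusted p in each comparison could be named. A gene that qualified in any comparison could also be described in the others. LEF1, ZEB2, IRF4, CDK2, RRAGD, AXL and NGFR, among others, were therefore also described outside the comparisons where they qualified. Exceptions to this are stated. List genes with no named probe set were not analysed here.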

Additional observations from a re-analysis of the deposited data

Results flagged for a closer look

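On the deposited scale, the interaction term over 12 arrays passed as negative for 3 of the 5 genes and for 62.5% of all genes. It asks whether the change with entinostat differed between cells with and without dabrafenib plus trametinib. After quantile normalization 2 of the 5 passed as negative and 1, MITF, as positive, against 2.12% and 2.08% of all genes. MLANA had an interaction of -0.61 on the log2 scale (limma, adjusted p = 0.02), with arrays in E and DTE each below their counterparts in DMSO and DT. The call was lost without E replicate 3 (-0.48, adjusted p = 0.065) or DTE replicate 3 (-0.51, adjusted p = 0.057) and after quantile normalization (0.19, adjusted p = 0.61).

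PMEL had an interaction of -1.41 (limma, adjusted p = 4.3e-05), higher in E than in DMSO and lower in DTE than in DT on the deposited scale. After quantile normalization it was -0.71 (adjusted p = 0.031), a call lost without any of several single arrays, as given with the other alternatives, and the difference of DTE from DT was then -0.06.

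EDNRB had an interaction of -1.80 (limma, adjusted p = 2.1e-06), with 0.08 for E against DMSO and -1.72 for DTE against DT. It was -0.97 after quantile normalization (adjusted p = 0.0016). On the deposited scale 62.5% of all genes passed the test with a negative interaction, and 2.12% did after quantile normalization.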

How the results depend on the processing

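Of 30 log2 differences (5 genes, 6 comparisons), 21 kept direction and call after quantile normalization, 21 with median centring and 19 with centring on the genes above the median, while 30 did with only the groups compared, 30 with the mean of probe sets, 29 with a trended robust variance, 29 with array weights, 29 with the dim-gene filter and 28 with log2(value + 16). MITF in E against DMSO passed with quantile normalization (-0.46), median centring (-0.67), centring on the genes above the median (-0.53), a trended robust variance (-0.39), array weights (-0.42) and the dim-gene filter (-0.39). MITF in DTE against DT turned positive at 0.63, 0.35 and 0.56 in the first 3 of these settings, and its interaction passed at 1.09, 1.02 and 1.09. In the same 3 settings EDNRB in DT against DMSO turned to 0.21 (0.215), 0.0737 and 0.19, MLANA's interaction to 0.19, 0.12 and 0.20, and GPR143's interaction to 0.31, 0.57 and 0.64 (0.0187 with log2(value + 16)), of which 0.64 passed (adjusted p = 0.046). GPR143 in E against DMSO did not pass with log2(value + 16) (-0.45, adjusted p = 0.066). EDNRB in E against DMSO turned to -0.20 with median centring and -0.0665 with centring on the genes above the median. The cause of these changes was not tested.

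The replicate block changed 0 of the 30 calls on deposited values. With the replicate block and quantile normalization together MITF was -0.46 in E against DMSO, 0.63 in DTE against DT and 1.09 for the interaction, EDNRB 0.215 in DT against DMSO, and the interactions of MLANA and GPR143 0.19 and 0.31, and MLANA in DTE against E lost its call (-0.39, adjusted p = 0.05, against 0.032 without the block). By the number, 3 of 12 arrays correlated best with an array of their own number.

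Leaving out each array in turn, on both scales, gave ranges of -0.53 to -0.23 for MITF in E against DMSO, -0.16 to 0.66 for MITF in DTE against DT, 0.13 to 1.16 (1.155) for its interaction, -0.20 to 0.24 for EDNRB in DT against DMSO, -0.027 to 0.21 for EDNRB in E against DMSO, -0.77 to 0.33 for MLANA's interaction, -0.40 to 0.42 for GPR143's interaction and -0.82 to 0.0795 for PMEL in DTE against DT. The number of the 5 genes called in E against DMSO ranged from 1, without E replicate 1, to 4. On deposited values 350 of 360 such results kept direction and call. After quantile normalization 240 of 360 kept the direction and call of the deposited values, 46 lost the call, 24 gained one and 50 turned sign. MITF in E against DMSO passed without DMSO replicate 3 (-0.48) or E replicate 3 (-0.53). After quantile normalization PMEL's interaction did not pass without DMSO replicate 1 or 3, DT replicate 1 or 2, or E replicate 1 or 2 (-0.73 to -0.64, adjusted p 0.056 to 0.078), and MLANA in DTE against E did not pass without E replicate 2 or 3 or DTE replicate 2 or 3 (-0.42 to -0.26, adjusted p 0.054 to 0.12).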
